A study of Mus musculus with 3 samples.

Results

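The interferon-stimulated effector genes are a set of 40 mouse genes whose products carry out the cell-autonomous defence that interferons switch on. They were found as the rows of the count table whose gene symbol equals a member's name, and all 40 were present among 44788 rows, of which 23131 had a count in at least 1 library. The table covers 3 RNA-sequencing libraries of T lymphocytes from spleens of BALB/c mice, all female and aged 6 to 8 weeks. Cells were pulled down with a magnetic bead kit for CD90.2, which T cells of the mouse carry on their surface, cultured in medium with 2% serum, and exposed for 10 h to LZ-8, a protein that the fungus Ganoderma lucidum makes and that acts on immune cells. The 3 libraries carry the same label and form 1 group, so the values below are levels in treated cells. Untreated cells were not analysed here, so none of the levels can be read as a response to LZ-8. The labels give neither the dose of LZ-8 nor whether mice were pooled.

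As background, interferons bind receptors at the cell surface and activate JAK kinases and STAT factors. Type I interferons lead mainly to a complex that includes STAT2 and IRF9 and binds the interferon-stimulated response element (ISRE), and interferon gamma leads to STAT dimers, which bind the gamma-activated site (GAS). The products fall into recognisable classes. Guanylate-binding proteins (GBPs) and immunity-related GTPases (IRGs) attack the compartments in which intracellular pathogens live and are strongly induced by interferon gamma. The IFIT, OAS, MX and related proteins act against viral RNA and viral particles, and others sense foreign nucleic acid or attach the ubiquitin-like modifier ISG15 to proteins. T cells are both a source of interferon gamma and a target of interferons.

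The libraries held 13239482, 15007652 and 15683820 counts in replicates 1, 2 and 3, and a level of 3 counts corresponded to 0.236, 0.198 and 0.186 CPM, the count scaled to the library's effective size. An 18S ribosomal RNA row took 5.83%, 2.37% and 0.992% of the counts in replicates 1, 2 and 3. All 15 genes of a T cell identity list averaged 10 CPM or higher, and Trac was the most abundant of them per kilobase. Of 11 macrophage and monocyte markers with a row, 9 were under 1 CPM in every library, and Csf1r, Fcgr1, C1qa, C1qb and Mertk had 0 counts. Their summed level was 13.2, 16.5 and 16.5 CPM in replicates 1, 2 and 3, most of it Mpeg1, while Cd68 was the most abundant per kilobase. Of the markers of plasmacytoid dendritic cells, known for making type I interferon, Siglech and Klk1 had 0 counts. Others of that list were detected, among them Bst2 at a mean of 59.7 CPM, Ccr9 at 5.39 and Tcf4 at 2.92. B cell markers summed to between 82.4 and 93.8 CPM, most of it Ighm, and NK cell markers to between 31.7 and 33.6 CPM, led by Prf1, which cytotoxic T cells also express. All 8 neutrophil markers were under 1 CPM in every library, S100a9 being the most abundant per kilobase, and of the other dendritic cell list 5 of 7 were, Zbtb46 being its most abundant. In pooled cells, a level cannot tell many cells with little RNA of a gene from few cells with much of it. Whether the 3 libraries stem from separate animals or cultures is not in the labels, so SDs and p-values cover only the spread among them, and that spread may be technical.

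Of the 40 members, 33 had a mean of 10 CPM or more and 14 had 100 CPM or more, and none was under 1 CPM in every library. Over all genes with a count, 39.8% reached 10 CPM, and over the protein-coding ones 56.3% did. The median member level was 5.64 on the log2(CPM + 1) scale, beside 1.96 over all genes with a count and 4.11 over the protein-coding ones. Per kilobase of exon, the scale on which genes can be compared with each other, the median member was at 11.6 CPM. The median gene with a count was at 2.61 and the median protein-coding one at 3.65 CPM per kilobase. Members spanned an 870-fold range on that scale, with Igtp at 192 ± 48.5 CPM per kilobase and Oasl2 at 0.221 ± 0.0934 CPM per kilobase (mean ± SD here and below, n = 3 libraries).

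GBPs and IRGs held most of the signal. These 12 genes made up 62.1%, 64.6% and 66.9% of the summed CPM per kilobase of all members in replicates 1, 2 and 3, a mean of 64.5% ± 2.39. Igtp alone made up 19.6% ± 2.53, and without it the share of the other GBPs and IRGs was 55.9% ± 1.64. Of the 12 GBPs and IRGs, 11 were at 20 CPM per kilobase or more, as were 7 of the 28 other members. The 15 antiviral members together gave 14.9% ± 2.04 of the summed level, most of it from Bst2 and Adar.

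**Figure D1:**
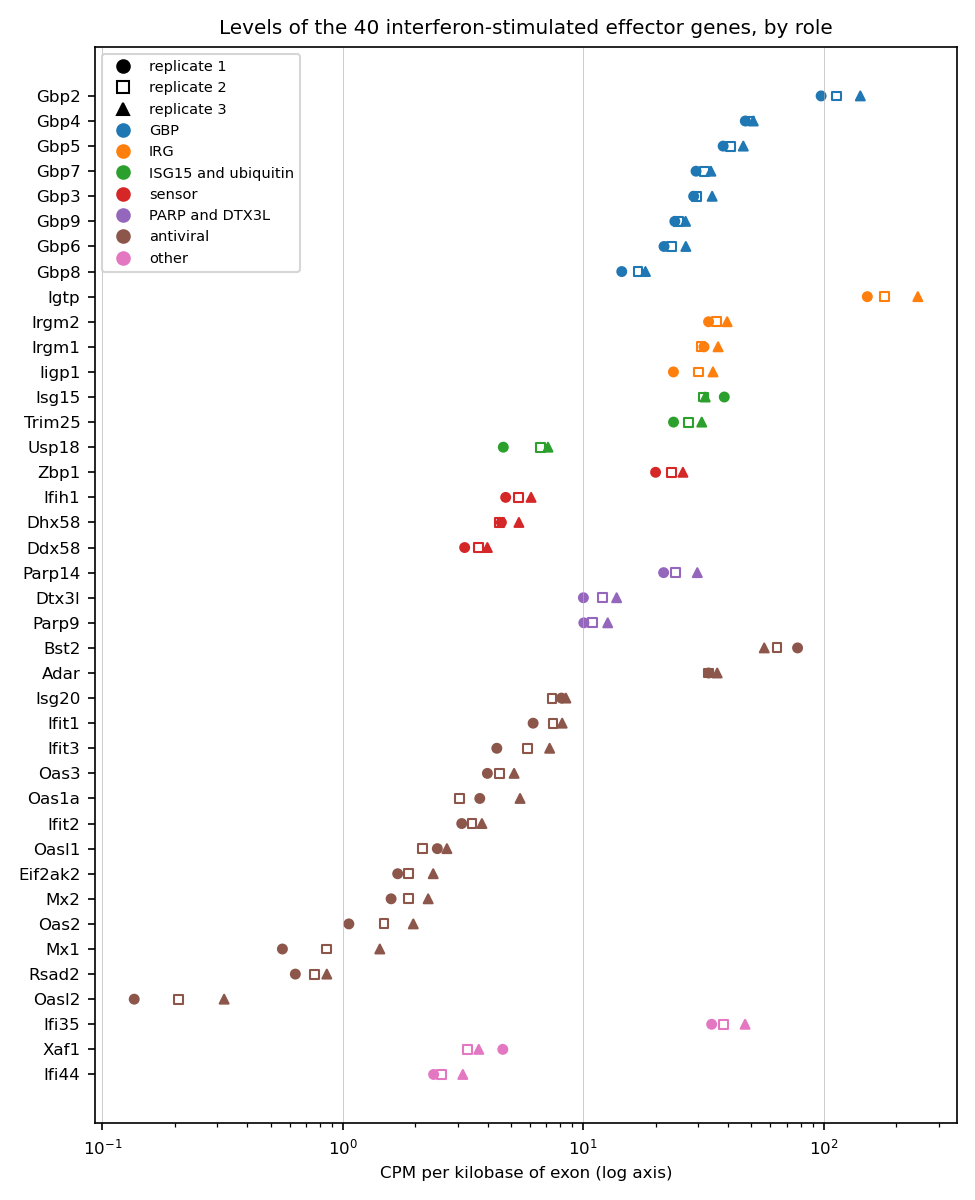
CPM per kilobase of exon on a log axis for each of the 40 members in replicates 1 (circle), 2 (open square) and 3 (triangle), grouped and coloured by role and ordered by mean within a role. GBPs and IRGs lie between 14.4 and 246 CPM per kilobase, while most antiviral genes lie below 10, with Bst2 and Adar above.

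The promoters of some of these genes are shown next, because they hold matches to the response elements of the 2 signalling arms, alone or together, and stand for several roles. Each window runs from 250 bases before to 50 bases after a RefSeq start site (GRCm38.p6, the C57BL/6J reference and not BALB/c sequence), 5′ to 3′ on the gene's strand. Capitals mark matches to the ISRE core (GAAA, any 2 bases, GAAA), searched on both strands, or to the GAS core TTCNNNGAA, which reads the same on both strands. Matches may overlap each other.
Igtp (chr11:58199306-58199605, plus strand): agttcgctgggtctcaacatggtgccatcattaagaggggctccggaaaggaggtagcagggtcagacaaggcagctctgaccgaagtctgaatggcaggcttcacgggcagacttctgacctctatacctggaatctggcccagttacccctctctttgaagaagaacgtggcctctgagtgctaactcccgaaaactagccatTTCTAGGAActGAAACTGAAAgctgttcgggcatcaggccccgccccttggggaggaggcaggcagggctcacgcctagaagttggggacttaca
Irgm2 (chr11:58214727-58215026, plus strand): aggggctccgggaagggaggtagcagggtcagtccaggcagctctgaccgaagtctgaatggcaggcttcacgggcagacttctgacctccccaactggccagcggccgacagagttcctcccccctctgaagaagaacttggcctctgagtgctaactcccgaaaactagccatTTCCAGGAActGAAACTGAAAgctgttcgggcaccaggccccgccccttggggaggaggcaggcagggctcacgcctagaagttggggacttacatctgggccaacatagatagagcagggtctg
Gbp2 (chr3:142620413-142620712, plus strand): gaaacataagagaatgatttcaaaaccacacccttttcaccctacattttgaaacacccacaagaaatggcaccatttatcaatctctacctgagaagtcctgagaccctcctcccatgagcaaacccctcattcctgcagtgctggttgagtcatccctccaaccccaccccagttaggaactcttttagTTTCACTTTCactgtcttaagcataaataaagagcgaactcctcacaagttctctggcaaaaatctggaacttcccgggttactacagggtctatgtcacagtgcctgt
Isg15 (chr4:156200769-156201068, minus strand): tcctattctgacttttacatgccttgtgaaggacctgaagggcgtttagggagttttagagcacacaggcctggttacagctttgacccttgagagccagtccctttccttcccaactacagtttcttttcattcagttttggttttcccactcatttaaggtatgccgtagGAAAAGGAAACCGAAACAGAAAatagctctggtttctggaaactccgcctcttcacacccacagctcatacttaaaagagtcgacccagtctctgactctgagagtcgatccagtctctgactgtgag
Bst2 (chr8:71537423-71537722, minus strand): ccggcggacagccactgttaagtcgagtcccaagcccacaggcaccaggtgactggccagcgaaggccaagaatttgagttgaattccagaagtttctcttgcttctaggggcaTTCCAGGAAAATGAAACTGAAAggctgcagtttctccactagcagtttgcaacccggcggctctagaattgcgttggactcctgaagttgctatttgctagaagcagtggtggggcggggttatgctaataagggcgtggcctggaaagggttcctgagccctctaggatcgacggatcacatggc
Ifit1 (chr19:34640639-34640938, plus strand): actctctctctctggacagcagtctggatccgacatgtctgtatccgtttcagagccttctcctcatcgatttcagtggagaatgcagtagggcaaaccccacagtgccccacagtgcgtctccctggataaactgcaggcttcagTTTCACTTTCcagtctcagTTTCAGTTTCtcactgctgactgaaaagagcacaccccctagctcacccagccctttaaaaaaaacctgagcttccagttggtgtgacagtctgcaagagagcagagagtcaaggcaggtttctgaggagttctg

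RefSeq windows were matched for 27 of the 40 members, 33 windows in all. An ISRE core was found in 17 of the 33 windows (51.5%), against 3.44% of all 32851 windows, and in 17 of the 27 members. A GAS core was found in 11 of the 33 windows (33.3%), against 8.30% of all windows, and both motifs in 7 of the 33 (21.2%), against 0.454% of all. Of 25 ISRE matches, 22 began before the start site and 15 within 100 bases before it. In Igtp and Irgm2, which lie next to each other on chromosome 11, the GAS core begins 11 bases before the ISRE core in both windows. The 21-base stretch holding both differed at 1 base between these genes, and the 95 bases from the GAS core to the end of the shared stretch differed at 2. In Bst2 the GAS core overlaps the first of 2 overlapping ISRE matches, and the Isg15 window has 3 overlapping ISRE matches and the Ifit1 window 2 separate ones. Members with an ISRE core had a median of 30.9 CPM per kilobase, between 0.751 for Rsad2 and 192 for Igtp. The 10 members with a window and no such match had a median of 5.93 CPM per kilobase, between 0.221 for Oasl2 and 39.8 for Ifi35. These ranges overlap, and a match is a description of letters and not a bound site. The group with an ISRE core includes Gbp2, Gbp3, Gbp5, Gbp7, Igtp, Irgm1 and Irgm2. The group with a window and no match has no GBP or IRG, so match and role cannot be told apart here. The 13 members without a window, Gbp4, Gbp6, Gbp8, Gbp9 and Iigp1 among them, had a median of 16.5 CPM per kilobase.

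Among the GBPs, large GTPases that coat pathogen vacuoles and bacteria, Gbp2 was the most abundant per kilobase. It was at 97.4, 113 and 142 CPM per kilobase in replicates 1, 2 and 3, a mean of 118 ± 22.5. Gbp4 followed at 47.1, 49.0 and 50.9 and Gbp5, known for promoting inflammasome assembly, at 38.1, 40.9 and 46.2 CPM per kilobase. On that scale, Gbp2, Gbp4 and Gbp5 kept this order without overlap between their libraries. Gbp7 at 31.7 ± 2.25, Gbp3 at between 28.8 and 34.3, Gbp9 at 25.2 ± 1.31 and Gbp6 at 23.9 ± 2.56 CPM per kilobase came next, Gbp7 with Gbp3 and Gbp9 with Gbp6 overlapping. Gbp8 was the lowest at 16.5 ± 1.87 CPM per kilobase. The order of Gbp2 and Gbp4 depends on the divisor, since merged exons span 2516 bases in Gbp2 and 7494 in Gbp4. By CPM not divided by length, Gbp4 led at 367 ± 14.1, with Gbp2 at 296 ± 56.6 and Gbp5 at 277 ± 27.4. The 4 members in the chromosome 3 cluster, Gbp2, Gbp3, Gbp5 and Gbp7 (142493978 to 142638008, GRCm38), summed to 222 ± 31.8 CPM per kilobase. The 4 members in the chromosome 5 cluster, Gbp4, Gbp6, Gbp8 and Gbp9 (105014150 to 105293698), summed to 115 ± 7.53. These sums cover members only and leave out Gbp2b, Gbp10 and Gbp11, which were measured and are given below. Gbp6 is uncertain, since 69.7% of its longest transcript matches other transcripts at 95% identity or more, chiefly Gbp10. The annotated bounds of Gbp4, Gbp8 and Gbp9 overlap.

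Among the IRGs, Igtp, also called Irgm3 and, like Irgm1 and Irgm2, a regulatory member that keeps the effector IRGs in check, was the most abundant of all 40 members per kilobase. It was at 152, 179 and 246 CPM per kilobase in replicates 1, 2 and 3, above every other member in every library. Its neighbour Irgm2 was at 33.2, 35.8 and 39.6 CPM per kilobase and Irgm1 at 31.7, 30.9 and 36.3. Per kilobase, Igtp was thus 5.22-fold above Irgm2, a log2 ratio of 2.38 ± 0.23. It was 5.73-fold above Irgm1, a log2 ratio of -2.52 ± 0.25 for Irgm1 over Igtp. These folds depend on merged exon lengths of 2022 bases for Igtp, 3690 for Irgm2 and 5810 for Irgm1. Their coding lengths are 1269, 1221 and 1227 bases. By CPM not divided by length, the log2 ratios were 1.52 for Igtp over Irgm2 and -0.995 for Irgm1 over Igtp. Iigp1, an effector IRG that loads onto vacuoles of intracellular parasites and is encoded on chromosome 18, was at 29.5 ± 5.48 CPM per kilobase, overlapping Irgm1 and Irgm2. Exons annotated to Irgm2 overlap 8.01% of the exonic bases of Igtp, and reads there could have been counted for either gene.

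The antiviral members fell into a few abundant genes and many scarce ones. Bst2, or tetherin, which holds budding virions at the cell surface, was at 77.8, 63.9 and 56.5 CPM per kilobase in replicates 1, 2 and 3, the third of all members by mean. Adar, which edits adenosines in double-stranded RNA, was at 33.2, 33.1 and 36.0 CPM per kilobase, and 16.8% of its exonic bases overlap Chrnb2 on the opposite strand. Isg20, an exonuclease acting on RNA, was at 7.99 ± 0.534 CPM per kilobase. Eif2ak2, the kinase PKR that halts translation on sensing double-stranded RNA, was at 1.98 ± 0.355 CPM per kilobase. Rsad2, or viperin, was at 0.634, 0.761 and 0.857 CPM per kilobase, with 35, 50 and 60 counts. In all, 7 of the 15 antiviral members had a mean below 10 CPM.

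The IFIT genes, whose products bind viral RNA, lie together on chromosome 19 (34550694 to 34650009). Ifit1 was at 7.27 ± 1.01, Ifit3 at 5.82 ± 1.44 and Ifit2 at 3.45 ± 0.333 CPM per kilobase. Ifit1 was above Ifit3 in each library, by a log2 ratio of 0.34 ± 0.16. Ifit3 is uncertain, since 97.4% of its transcript matches its near-identical copy Ifit3b, which has no row of its own name in the table.

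The OAS enzymes make the oligoadenylate that activates RNase L. Oas3 was at 3.99, 4.49 and 5.15 CPM per kilobase in replicates 1, 2 and 3 and Oas2 at 1.06, 1.48 and 1.96, a 3.11-fold difference with a log2 ratio of -1.63 ± 0.26 for Oas2 over Oas3. Oas1a was at 3.71, 3.04 and 5.45 CPM per kilobase, with all of its longest transcript matching Oas1g, so its level is uncertain. Of the OAS-like genes, Oasl1 was at 2.44 ± 0.28 CPM per kilobase, below Oas3 and above Oas2 in every library, and Oasl2 with 11, 20 and 33 counts was the least abundant member. The 5 genes together summed to 12.8 ± 2.44 CPM per kilobase, below Trim25 alone.

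The MX GTPases block viral nucleocapsids, and many laboratory mouse strains carry defective alleles of them. Mx1 had 27, 49 and 87 counts, or 0.560, 0.854 and 1.42 CPM per kilobase, in replicates 1, 2 and 3. Mx2 was at 1.91 ± 0.339 CPM per kilobase, and 34.0% of its longest transcript matches Mx1. The counts do not show whether either gene made an intact transcript.

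The sensors of foreign nucleic acid were led by Zbp1, which detects Z-form nucleic acids and can start necroptosis, at a mean of 23.0 ± 2.99 CPM per kilobase. The RNA helicase sensors were lower and did not overlap it. Ifih1, or MDA5, was at 5.39 ± 0.655, Dhx58, or LGP2, at 4.82 ± 0.502, and Ddx58, or RIG-I, at 3.62 ± 0.393 CPM per kilobase. Ddx58 was below Ifih1 in each library with a narrow spread, the log2 ratio being -0.57 ± 0.03. Of the list of sensing adaptors, kinases and receptors, 7 of 10 were at 10 CPM or more, led per kilobase by the kinase Ikbke at 33.8 ± 1.18 and the adaptor Myd88 at 24.3 ± 3.33, and Tlr3 had 1 count in all.

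Isg15, the ubiquitin-like modifier, was at 38.5, 31.6 and 32.1 CPM per kilobase in replicates 1, 2 and 3. Usp18, the protease that removes it and also restrains the type I receptor, was at 4.65, 6.64 and 7.13. Per kilobase, Isg15 was thus 5.62-fold higher, with a log2 ratio of 2.49 ± 0.49. By CPM not divided by length, that log2 ratio was 0.61. The level of Isg15 is uncertain, since 63.8% of its transcript matches the annotated gene AC151275.1. Trim25, an E3 ligase that acts on RIG-I and can attach ISG15, was at 27.4 ± 3.68 CPM per kilobase. The other conjugation enzymes were lower per kilobase than Trim25, with the activating enzyme Uba7 at 11.2 ± 0.771, the E2 enzyme Ube2l6 at 6.62 ± 0.292 and the ligase Herc6 at 1.36 ± 0.197.

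Parp9 and Dtx3l lie head to head on chromosome 16, and their proteins form a complex of an ADP-ribosyltransferase family member and an E3 ligase. Both genes were at nearly equal levels per kilobase of exon. Parp9 was at 10.0, 10.9 and 12.6 CPM per kilobase and Dtx3l at 10.0, 12.0 and 13.8 in replicates 1, 2 and 3, a log2 ratio of -0.09 ± 0.08 for Parp9 over Dtx3l. Its sign differed between libraries, negative in 2 of 3. By CPM not divided by length, Parp9 was below Dtx3l in every library, with a mean log2 ratio of -0.32. Overlapping exons on opposite strands make up 9.40% of Parp9, and with the strand of the counting unknown, reads there cannot be told apart. Parp14, a further ADP-ribosyltransferase encoded on the same chromosome, was higher at 25.2 ± 4.20 CPM per kilobase. Ifi35, which forms complexes with Nmi, was at 39.8 ± 6.59 CPM per kilobase, with 16.8% of its exonic bases overlapping Gm11626 on the opposite strand. Xaf1, a pro-apoptotic antagonist of XIAP, was at 3.86 ± 0.686 and Ifi44 at 2.70 ± 0.401 CPM per kilobase.

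In the order of all 40 members per kilobase, neighbours overlapped between libraries in 31 of 39 steps. The steps without overlap were those from Igtp down to Gbp2, Bst2, Gbp4 and Gbp5, from Zbp1 to Gbp8 and Dtx3l, from Parp9 to Isg20, and from Rsad2 to Oasl2. Of the 9 pairs of neighbours or partners whose ratio was taken within each library, 8 had the same sign in all 3 libraries. With 3 libraries, an exact two-sided sign-flip permutation test cannot go below 0.25, which those 8 pairs reached, with an adjusted p of 0.281 over the 9 pairs, and Parp9 with Dtx3l had p = 0.50. Gbp4 over Gbp9, with a log2 ratio of 0.96 ± 0.02, had the narrowest spread of the 9 and Isg15 over Usp18 the widest. Gbp2 was above Gbp3 by 1.91 ± 0.14 on the log2 scale.

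Upstream of the effectors, the interferon ligands were nearly all at 0. Ifnb1, Ifna1, Ifna2, Ifna4, Ifna5, Ifne, Ifnk, Ifnz, Ifnl2 and Ifnl3 had no count in any library, which allows a level of up to 0.236, 0.198 and 0.186 CPM in replicates 1, 2 and 3, and Ifnab had 2 counts in replicate 3. Ifng was present at 47.8, 42.5 and 36.4 CPM, or 32.6 ± 4.41 per kilobase. Both chains of each receptor were measured, with Ifngr1 at 23.1 ± 2.79 and Ifnar1 at 18.2 ± 0.373 CPM per kilobase the highest, while Ifnlr1, the specific chain of the lambda receptor, was under 1 CPM in every library.

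The 5 signal transducers described here were at 100 CPM or more on average, led per kilobase by the kinases Jak2 at 89.6 ± 7.82 and Jak1 at 60.9 ± 3.16. Stat2 at 17.3 ± 0.841 and Irf9 at 23.7 ± 0.505 CPM per kilobase, which take part in the type I response, were lower. Of the 9 IRF factors, 7 were at 10 CPM or more, with Irf4 at 491 ± 43.3 and Irf1, itself induced by interferon gamma, at 81.5 ± 4.87 CPM per kilobase the highest. Irf7, which amplifies type I interferon production, was at 13.9 ± 0.736. Of the 7 genes listed as brakes on the pathway, all were at 10 CPM or more. The phosphatase Ptpn6 led at 123 ± 1.57 CPM per kilobase, and Socs1 was at 12.9 ± 4.11. Isg15, also entered in that list, came next after Ptpn6, and whether it restrains the pathway in these cells was not tested.

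**Figure D2:**
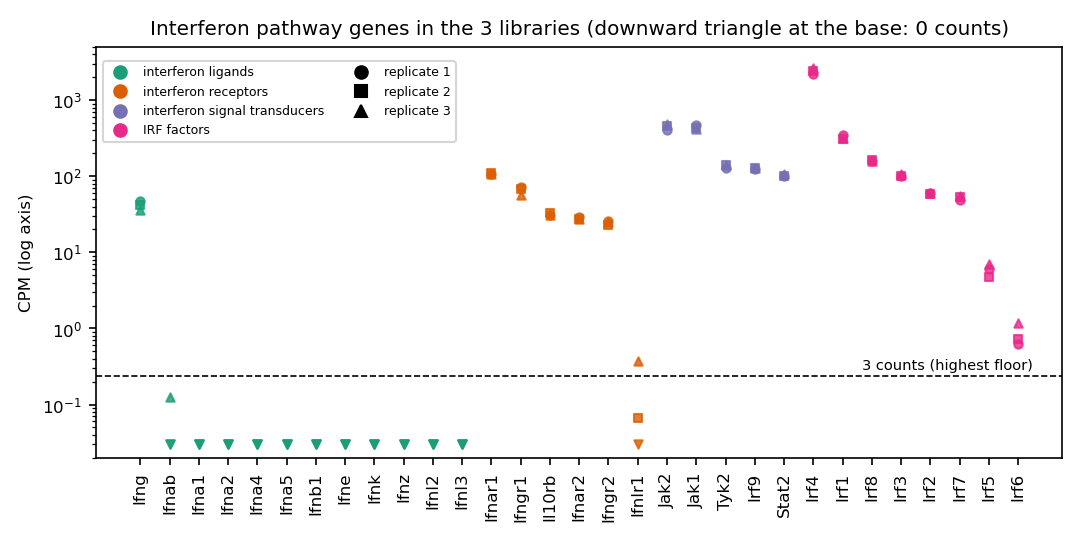
CPM on a log axis for interferon ligands, receptors, signal transducers and IRF factors in replicates 1 (circle), 2 (square) and 3 (triangle). Downward triangles at the base stand for 0 counts, and the dashed line is the highest level that 3 counts gave (0.236 CPM). Ifng is the ligand above that line in every library, and Jak2, Jak1 and Irf4 are among the most abundant.

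A further list of 60 interferon-stimulated genes outside the 40 had 58 rows in the table, of which 47 (81.0%) were at 10 CPM or more, beside 82.5% of the 40 members. B2m, the light chain of MHC class I, at 1231 ± 176 and Ifi27l2a at 284 ± 25.9 CPM per kilobase led it, and the chemokine genes Cxcl9 and Cxcl11 were under 1 CPM in every library. Gbp2b, the mouse Gbp1, was at 65.1 ± 14.6 and Ifi47, an IRG, at 139 ± 7.58 CPM per kilobase. The other GBP and IRG genes of the list were Tgtp1 at 33.3 ± 4.67, Tgtp2 at 30.96 ± 1.06, Gbp10 at 29.2 ± 0.681 and Gbp11 at 4.46 ± 0.256 CPM per kilobase, the last below every GBP member. Tgtp1 and Tgtp2 are near-identical copies of each other, so their separate levels are uncertain.

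The members then differed between the libraries by more than counting error, most of them in the same direction. Each gene's 3 counts were set against the scaled library sizes in a chi-square test, a test of these libraries and not of a condition. Of the 40 members, 33 passed at an adjusted p of 0.05 (Benjamini-Hochberg over 15392 genes), where 42.8% of all genes tested passed and 58.5% of those at 10 CPM or more. Of the 40, 27 (67.5%) passed with replicate 1 lowest and replicate 3 highest, where 16.1% of all genes tested did and 24.7% of those at 10 CPM or more. The median fold between the highest and the lowest library was 1.30 over members. It was 1.22 over all genes of at least 1 CPM and 1.18 over those of at least 10 CPM. The median biological coefficient of variation, the spread beyond counting error that edgeR estimates, was 0.141 over members. That median was 0.143 over all genes kept and 0.126 over genes of at least 10 CPM. The differences were mostly small, with 6 members passing and differing by 1.5-fold or more between the highest and lowest library (13.8% of all genes). The median coefficient of variation over members was 13.2%, beside 3.74% from counting alone, and it exceeded the counting error in 39 of 40. Neither figure was taken over all genes, so neither sets the members apart from other genes.

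Igtp had the largest difference among the abundant members, with 307, 362 and 497 CPM in replicates 1, 2 and 3, 1.62-fold between the extremes (adjusted p = 7.83e-155 by chi-square over all genes). Gbp2 had 245, 285 and 357 CPM, a 1.46-fold difference, and Iigp1 138, 175 and 201 CPM, likewise 1.46-fold. Among the scarce members, Mx1 differed 2.54-fold, with 2.12, 3.23 and 5.39 CPM, and Oas2 1.85-fold, with 4.71, 6.59 and 8.73 CPM. In each of these genes replicate 1 was the lowest library and replicate 3 the highest. Usp18, with 13.0, 18.5 and 19.9 CPM, had replicates 2 and 3 close together and replicate 1 apart.

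Some members went another way. Bst2 had 70.2, 57.7 and 51.0 CPM in replicates 1, 2 and 3, so replicate 1 was the highest library (adjusted p = 1.39e-09 by chi-square). Isg15 with 29.1, 23.9 and 24.3 CPM and Xaf1 with 21.7, 15.4 and 17.2 CPM were also highest in replicate 1 and passed. The GBP with the smallest difference, Gbp4, was at 353, 367 and 381 CPM, 1.08-fold between the extremes. The 7 members that did not pass were Isg20, Ifit2, Mx2, Oasl1, Oasl2, Rsad2 and Dhx58, with adjusted p between 0.064 for Oasl2 and 0.481 for Rsad2 by chi-square. Bst2 is also a marker of plasmacytoid dendritic cells. The 8 markers of that list summed to 81.1, 67.9 and 61.3 CPM in replicates 1, 2 and 3, most of it Bst2 itself, 3 of the 8 were under 1 CPM in every library, and Siglech was at 0.

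By role, all 8 GBPs, Parp9, Parp14 and Dtx3l, and 3 of 4 sensors passed with replicate 1 lowest and replicate 3 highest. In that direction 16.1% of all genes tested passed, and 24.7% of those at 10 CPM or more. All 4 IRGs passed, 3 of them in that direction, with Irgm1 lowest in replicate 2. Of the 15 antiviral members 9 passed, a share close to the 58.5% of all genes at 10 CPM or more and above the 42.8% of all genes tested. Of these 15, 7 had a mean below 10 CPM. Among the 9 were Oas1a, with 6.99, 5.74 and 10.3 CPM, and Adar, with 269, 268 and 292 CPM, which were lowest in replicate 2. The median log2 ratio of replicate 3 to replicate 1 was 0.36 over the members and 0.03 over the 13551 genes of at least 1 CPM.

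**Figure D3:**
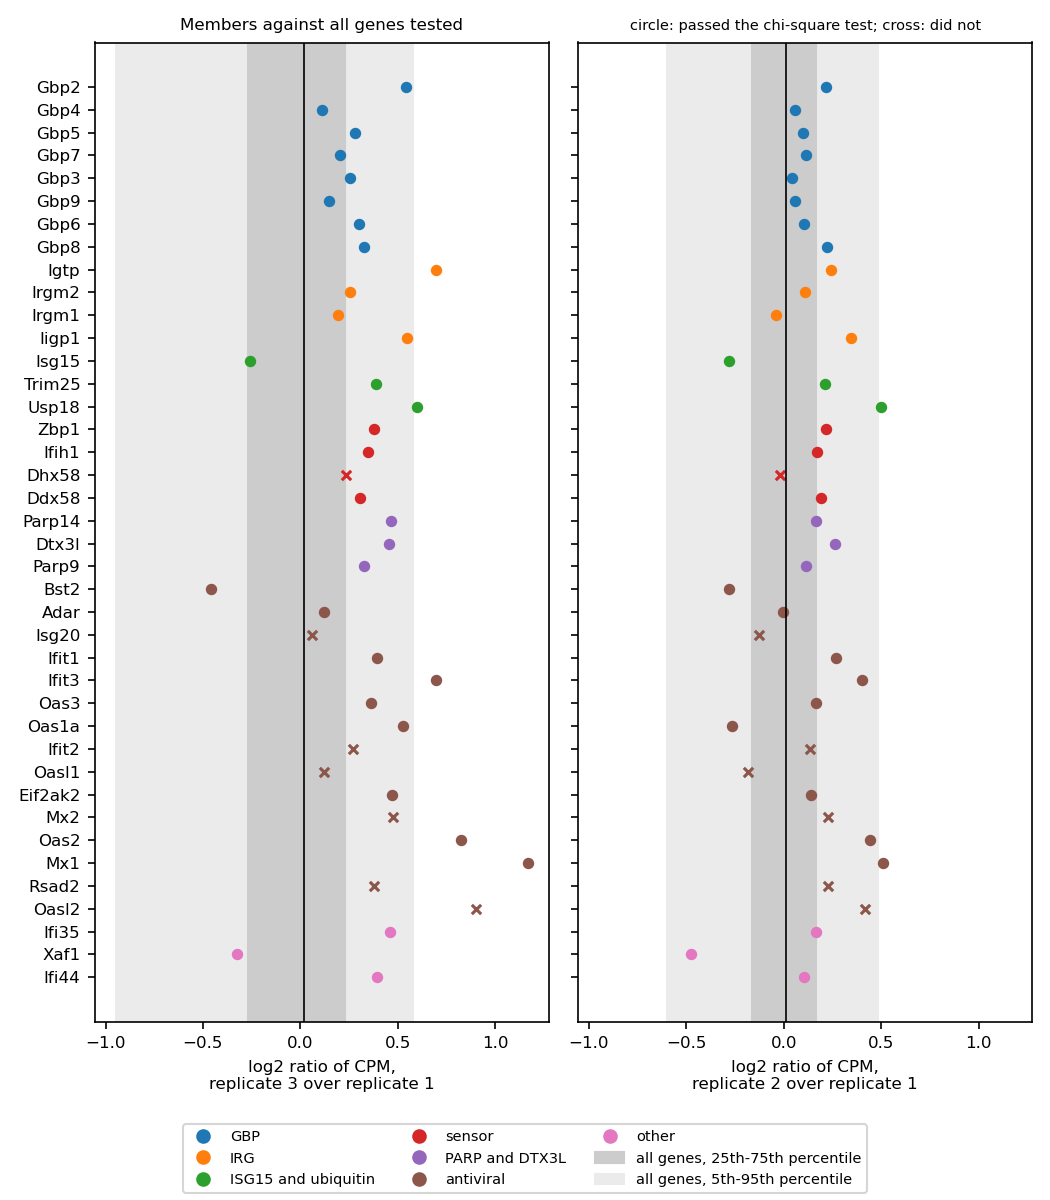
Log2 ratio of CPM (0.5 CPM added) of replicate 3 to replicate 1 (left) and of replicate 2 to replicate 1 (right) for each member, coloured by role, with circles for members that passed the chi-square test over all genes and crosses for those that did not. The black line and grey bands give the median, the 25th to 75th and the 5th to 95th percentiles of 15392 genes tested, and on the left 37 of 40 members lie above 0, with Isg15, Bst2 and Xaf1 below.

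Fewer members passed when replicate 1 or replicate 3 was left out. With replicates 2 and 3 alone, without replicate 1, 18 members passed (24.4% of all genes tested), 17 of them higher in replicate 3 (11.6% of all genes). With replicates 1 and 2 alone, without replicate 3, 14 passed (22.8%), and with replicates 1 and 3 alone 35 (41.7%). The share of 18S ribosomal RNA was highest in replicate 1 and lowest in replicate 3, the opposite order to most members. Its part in the result was not tested. With that row left out of the totals 33 members passed, but the scaled sizes then kept nearly the same proportions, so this cannot test it.

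Among coding genes of at least 5 CPM, those with long exonic sequence and low GC content were higher in replicate 3 than in replicate 1. The median log2 ratio was -0.12 among the 2250 genes with the least exonic sequence and 0.16 among the 2250 with the most. It was 0.21 among the 2251 genes lowest in GC content and -0.07 among the 2250 highest in it. With this trend removed by robust splines, the median log2 ratio of replicate 3 to replicate 1 over 36 members was 0.30, against 0.33 before. These are the members of at least 5 CPM annotated as protein-coding, which leaves out Mx2, annotated as a polymorphic pseudogene. Of the 36, 27 were lowest in replicate 1 and highest in replicate 3 before and 27 after, where 36.0% of 8999 genes were before and 36.9% after.

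Other genes of the pathway moved in both directions between the libraries. Jak2 had 406, 464 and 481 CPM in replicates 1, 2 and 3 (adjusted p = 6.94e-20 by chi-square), lowest and highest in the same libraries as most members. Jak1, with 465, 435 and 421 CPM (adjusted p = 4.30e-07 by chi-square), was highest in replicate 1 and lowest in replicate 3. Ifng with 47.8, 42.5 and 36.4 CPM (adjusted p = 6.51e-05 by chi-square) and its receptor chain Ifngr1 with 72.7, 67.6 and 57.1 CPM (adjusted p = 3.94e-06 by chi-square) were highest in replicate 1 and lowest in replicate 3. So was Socs1, a feedback inhibitor of JAK kinases, with 47.6, 40.6 and 24.3 CPM.

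Of the further interferon-stimulated genes, 33 of 56 tested passed (58.9%), about the share of all genes at 10 CPM or more (58.5%), where 42.8% of all genes tested passed. Of the 56, 18 (32.1%) passed with replicate 1 lowest and replicate 3 highest, where 16.1% of all genes tested did and 24.7% of those at 10 CPM or more. Gbp2b, with 148, 174 and 229 CPM, was among these 18, while B2m, with 1181, 1106 and 889 CPM, and the peptide transporter gene Tap2, with 285, 240 and 206 CPM, were highest in replicate 1. Of the 9 IRF factors 2 passed (22.2%), below the 42.8% of all genes tested and the 58.5% of those at 10 CPM or more. Irf4 was lowest in replicate 1 and highest in replicate 3, and Irf1 was highest in replicate 1. The difference in share between these lists was not tested.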

How the data were processed

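Libraries were made from Trizol-extracted RNA with an Ion Proton RNA-Seq kit, per the labels. The deposited file is a single table of raw counts by gene symbol, with 1 column a library. Per the submitters' processing notes, the build was mm10. Aligner, counter, annotation, strand and filters: not given in the sources used here.

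Counts were scaled in edgeR 4.0.16 (R 4.3.3) by trimmed means of M-values (0.962, 1.01 and 1.03 in replicates 1, 2 and 3) to give CPM. CPM per kilobase divides these by each gene's merged exons in GENCODE release M21 (GRCm38), in which all 40 members were matched. A chi-square test set the 3 counts of a gene against the scaled sizes, where each library's expected count was at least 5. This test and edgeR's dispersion step were tested on simulated data. Near-identical copies are blastn 2.17.0 matches of at least 100 bases at 95% identity or more. DESeq2 1.42.0 gave alternative size factors and dispersions. Intervals and floors cover counting error only.

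Named genes were all 40 members, the 2 most abundant per kilobase and those under 1 CPM of each pathway list, both genes of each pair and the leading marker per kilobase of each other cell type, beside defining markers at 0. Ccr9, Gbp10, Gbp11, Gbp2b, Herc6, Ifi47, Irf7, Irf9, Mpeg1, Socs1, Stat2, Tap2, Tcf4, Tgtp1, Tgtp2 and Ube2l6 were named outside that rule, after their values were seen. Members, lists and pairs were chosen with earlier results of these data known. Adgre1, Ifit1bl1 and Ifit3b of the lists have no row under these names. A gene of the signal transducer list is not reported here.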

Additional observations from a re-analysis of the deposited data

How the results depend on the processing

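No paired analysis was possible because all libraries belong to 1 group. DESeq2 size factors, no scaling factor and totals without the 18S row left 33, 35 and 33 members passing. Of all genes tested, 6548 of 15392, 7312 of 15520 and 6589 of 15392 passed with these settings. With each setting, 33 members were at 10 CPM or more, and these member counts were within 1.5 times the reported ones. Totals without the 18S row kept nearly the same proportions among the scaled sizes, so that setting could hardly change a call. Leaving out 1 replicate at a time gave 14 to 35 members differing between libraries, the lowest without replicate 3 and 18 without replicate 1. Of all genes tested, 22.8% passed without replicate 3, 24.4% without replicate 1 and 41.7% without replicate 2. Asking also for a 1.5-fold difference left 6 members, an adjusted p of 0.01 left 27, and no minimum count left 32. Over all genes tested these left 2130 of 15392, 5168 of 15392 and 6388 of 23131. The median log2 member level was 5.53 to 5.71 when replicates were left out and 3.65 per kilobase, where dividing by length lowers it by construction. The median fold between highest and lowest library was 1.30, with 1.14 to 1.30 when replicates were left out and 1.28 with the length and GC trend removed. The median biological coefficient of variation of members was 0.141, with 0.103 to 0.197 when replicates were left out. It was 0.143 over all genes kept and 0.126 over genes of at least 10 CPM. The GBP and IRG share of 64.5% was 67.5% per kilobase of coding length and 69.5% without the 6 members that have a near-identical copy and 63.3% to 65.7% when replicates were left out. Division by RefSeq protein lengths was not run. Member pairs with 1 sign in all libraries numbered 8 to 9, and none of the 9 ratios changed sign on average. Coding length, copies left out and trend removal were chosen after seeing the data. The cause of these shifts was not tested. Depth limits the scarcest members, Oasl2 with 11 to 33 counts and Mx1 with 27 to 87.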
